A study of Mus musculus with 32 samples.

Results

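The chemokine system was examined in mouse liver as 41 genes, 30 ligands and 11 receptors, listed by name from the CC, CXC, CX3C and XC families. No threshold on the measured values set the list, but it was drawn up with earlier results of these data known. All 41 had a probe on the array, and 34 of them passed the filter on dim probes and were tested among 21073 genes. The livers came from male C57/BL6 mice that were 8 weeks old at the start and received a standard chow diet (C) or a diet deficient in methionine and choline (MCD) for 3 weeks. The GLP-1 receptor agonist Fc-GLP-1 was given during the last 2 weeks to chow-fed (C+Fc-GLP-1) and MCD-fed (M+Fc-GLP-1) mice, whereas C and MCD mice received saline. Each of the 4 regimens was sampled in liver removed at surgery (before PH) and in liver 2 weeks after a 70% partial hepatectomy (PH). This gave 8 groups of 4 arrays labelled as biological replicates. The study's methods state that diet and treatment were continued after PH. The sample labels name the agent Fc-GLP-1 in one field and a dual agonist of GLP1R and GCGR at 4.4 mg/kg/day in another, and the name Fc-GLP-1 is used here. The source label of C+Fc-GLP-1 livers after PH names Fc-GLP-1 before PH and a dual agonist after it. That of M+Fc-GLP-1 livers after PH says that the same treatment went on. Whether both groups received the same agent after PH cannot be told from the labels. Arrays after PH come from animals that survived the operation, and titles of samples before and after PH repeat the same numbers, so they may come from the same mice, which the labels do not state.

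Chemokines are small secreted proteins that direct the migration of leukocytes along gradients bound to cell surfaces and matrix. They act on G protein-coupled receptors, and most inflammatory ligands bind several receptors while most inflammatory receptors bind several ligands. In injured liver, Kupffer cells, hepatocytes, stellate cells and sinusoidal endothelium are known sources of ligands that recruit monocytes through CCR2, neutrophils through CXCR2 and T and NK cells through CXCR3, and homeostatic ligands such as CXCL12 and CXCL13 position resident and lymphoid cells. The MCD diet is a standard model of steatohepatitis without obesity.

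Levels are log2 probe signals relative to each array's 75th percentile, so a level of 0 equals that percentile. Levels of different genes are not compared, because probes differ in brightness. A gene was counted as changed at an adjusted p below 0.05 in a limma fit to all 32 arrays, adjusted over the 21073 genes. Arrays lay on 5 slides. MCD was set against C before PH, and M+Fc-GLP-1 against C+Fc-GLP-1 at both times, within a slide. In every other pairwise comparison slide and group cannot be told apart. C and MCD arrays after PH were also read on another scanner than all others, so scanner and group cannot be told apart in both comparisons of treatment after PH and in the changes over time of C and MCD livers. A constant offset of a slide drops out of both interaction terms. The filter kept a gene that was above background on all 4 arrays of some group, and Ccl3, Ccl17, Xcl1 and Cxcr4 met it in MCD livers before PH alone and Cxcl5 and Ccr3 in C+Fc-GLP-1 livers after PH alone. Between 22 and 36 of the 41 members were above background on an array. After PH, C+Fc-GLP-1 replicate 1 was the highest of its group for 23 of the 34 members tested and C replicate 1 for 22, so counts that rest on those arrays are also given without them, an alternative chosen after the data had been seen. In whole liver, a change in the number of cells of a type and a change in RNA per cell cannot be told apart. The hepatocyte marker genes were bright on every array, with summed log2 levels between 10.91 and 12.24.

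The stretches of 250 bases before the annotated start are shown for 6 members on which the results turn: Pf4 and Ppbp, neighbours on chromosome 5 that were both higher in C+Fc-GLP-1 than in C livers before PH, Cxcl13, Cxcl14 and Cxcl9, which differed after PH, and Ccl9, which M+Fc-GLP-1 livers had less of than C+Fc-GLP-1 livers at both times. They are RefSeq sequences in build GRCm38.p6, printed 5′ to 3′ on the gene's strand. Capitals mark matches, none of which overlap here, to 3 patterns searched on both strands: GGGNNNTNCC for NF-kB, GAAANNGAAA for the interferon regulatory factors and TTCNNNGAA for STAT proteins. Pf4 lies at chr5:90772185-90772434, plus strand, and Ppbp at chr5:90768268-90768517, plus strand, and neither holds a match.
Pf4: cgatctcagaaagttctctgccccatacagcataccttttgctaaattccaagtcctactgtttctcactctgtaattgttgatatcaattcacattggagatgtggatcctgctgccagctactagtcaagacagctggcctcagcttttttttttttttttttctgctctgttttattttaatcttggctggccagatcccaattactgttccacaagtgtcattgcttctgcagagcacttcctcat
Ppbp: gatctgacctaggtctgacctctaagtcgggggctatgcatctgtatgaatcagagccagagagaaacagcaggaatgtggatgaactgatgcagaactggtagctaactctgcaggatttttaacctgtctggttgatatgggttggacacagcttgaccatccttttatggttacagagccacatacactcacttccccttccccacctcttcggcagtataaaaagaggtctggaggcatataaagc
Cxcl13 lies at chr5:95956689-95956938, plus strand and holds an NF-kB match from -63 to -54 relative to the start.
Cxcl13: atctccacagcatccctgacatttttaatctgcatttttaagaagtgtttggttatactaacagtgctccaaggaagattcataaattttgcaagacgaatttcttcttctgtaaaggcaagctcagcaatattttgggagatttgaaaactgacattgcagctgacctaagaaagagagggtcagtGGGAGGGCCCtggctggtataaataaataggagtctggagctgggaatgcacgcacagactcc
Cxcl14 lies at chr13:56296552-56296801, minus strand and holds a STAT match from -191 to -183 and an interferon regulatory factor match from -172 to -163.
Cxcl14: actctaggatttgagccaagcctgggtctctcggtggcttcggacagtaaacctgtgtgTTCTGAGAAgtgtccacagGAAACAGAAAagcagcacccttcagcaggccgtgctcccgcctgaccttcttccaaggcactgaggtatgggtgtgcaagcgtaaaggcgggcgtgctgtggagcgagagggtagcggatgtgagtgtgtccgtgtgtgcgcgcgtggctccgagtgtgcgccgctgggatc
Cxcl9 lies at chr5:92328080-92328329, minus strand and holds an NF-kB match from -130 to -121, and Ccl9 lies at chr11:83578637-83578886, minus strand with an NF-kB match from -35 to -26.
Cxcl9: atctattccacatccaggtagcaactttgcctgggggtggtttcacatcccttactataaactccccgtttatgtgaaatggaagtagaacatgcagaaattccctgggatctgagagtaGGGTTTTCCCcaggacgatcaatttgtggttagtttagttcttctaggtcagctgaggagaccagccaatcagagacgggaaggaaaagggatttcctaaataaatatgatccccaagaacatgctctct
Ccl9: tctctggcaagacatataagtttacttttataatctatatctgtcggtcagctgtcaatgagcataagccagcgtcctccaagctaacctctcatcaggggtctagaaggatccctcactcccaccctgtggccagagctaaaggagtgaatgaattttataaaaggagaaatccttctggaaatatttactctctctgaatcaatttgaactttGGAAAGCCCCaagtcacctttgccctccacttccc
The table of promoters held 32 entries for 30 of the 41 members, and Ccl2, Ccl7, Ccl4, Ccl5, Ccl11, Ccl24, Cxcl5, Cxcl11, Cxcl16, Ccr7 and Cxcr5 had none. An NF-kB match was found in 11 of the 32 entries (34.4%) and in 14.9% of the 32851 promoters of the table. The interferon regulatory factor pattern was found in 3 entries (9.38%, against 2.98% of all promoters) and the STAT pattern in 3 (9.38%, against 7.02%). A match is a run of letters and not evidence of binding.

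Whether the MCD diet alone changed the chemokine system was read from MCD against C livers before PH, which shared a slide. The MCD arrays were brighter, with a 75th percentile of the unscaled signal of 442 to 564 against 209 to 395 in C. On them 31 to 36 members were above background, against 25 to 34 in C. The part of array brightness in the differences was not tested. Of the 34 members, 12 were higher and 1 was lower in MCD livers, against 10.9% of all genes called higher and 15.5% called lower. The 12 comprised 9 ligands (Ccl2, Ccl7, Ccl3, Ccl4, Ccl5, Ccl6, Ccl24, Ccl17 and Pf4) and 3 receptors (Ccr7, Cxcr3 and Cx3cr1), and the homeostatic ligand Ccl25 was the one that fell. Leaving out the 4 members that passed the filter in MCD livers alone, Ccl3 and Ccl17 among the 12, 10 were higher and 1 lower of 30, with a median difference of 1.02. The median difference of the members was 1.27 on the log2 scale, against -0.13 over all genes. In all, 41.4% of the genes called were higher, and 76.9% after centring arrays on their medians, which raised the difference of the median gene by 0.37 and that of the members' median to 1.64.

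Of the 3 tested ligands listed here under CCR2, the receptor of classical monocytes, 2 were higher in MCD livers. Ccl2, the main monocyte attractant, lay at -1.03, -0.75, -0.61 and -0.66 on the 4 C arrays and at 1.65, 1.86, 0.93 and 2.52 on the 4 MCD arrays. Every MCD array lay above every C array, and the difference was 2.5 (SE 0.85, adjusted p = 0.0294), or 5.67-fold. Ccl7, a second ligand of CCR2, lay at -6.28, -3.03, -4.45 and -5.99 in C, where 2 of 4 arrays were above background, and at -1.74, -1.41, -2.66 and -0.82 in MCD, a difference of 3.28 (SE 0.87, adjusted p = 0.00625) with no overlap. The third ligand of that list, Ccl8, differed by 1.39 (adjusted p = 0.127) and did not pass.

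Among the 5 inflammatory CC ligands that attract macrophages and activated T cells, Ccl3, Ccl4, Ccl5, Ccl6 and Ccl9, 4 were higher. Ccl3 was not above background on any C array, with measured values of -4.57, -6.03, -6.18 and -6.03, and reached -3.38, -3.32, -2.92 and -2.46 on the MCD arrays. Its mean was at least 3.28-fold higher (adjusted p = 0.00912), a bound not reached with normexp background correction (difference 0.18, adjusted p = 0.716). Ccl3 passed the filter through the MCD group alone. Ccl4, which was above background on 1 of 4 C arrays, lay at -4.57, -2.91, -4.48 and -3.59 in C and -0.25, -0.74, -1.37 and -0.33 in MCD. Its difference was 3.21 (SE 0.76, adjusted p = 0.00265), and the groups did not overlap. Ccl5, made by T cells and platelets among others, lay at 0.52, 1.14, 0.42 and 0.56 in C and 2.21, 1.95, 2.4 and 3.14 in MCD, a difference of 1.76 (SE 0.35, adjusted p = 0.000603). Ccl6, a rodent ligand of CCR1 made by macrophages, lay at 0.85, 0.95, -0.16 and -0.03 in C and 3.3, 1.52, 1.93 and 3.45 in MCD, a difference of 2.15 (SE 0.55, adjusted p = 0.00496). For both Ccl5 and Ccl6 the lowest MCD array was above the highest C array. The remaining ligand of this group, Ccl9, pointed the other way at -0.91 (adjusted p = 0.0792), without passing.

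Ccl24 and Ccl17 are ligands of CCR3 and CCR4, receptors of eosinophils and of type 2 helper and regulatory T cells. Ccl24, an eosinophil attractant, lay at -1.53, 0.17, -2.18 and -1.68 in C and 1.05, -0.84, 0.69 and 0.87 in MCD, a difference of 1.75 (SE 0.53, adjusted p = 0.0157) in which C replicate 2 overlapped MCD replicate 2. Ccl17, made by dendritic cells, lay at -3.3, -3.47, -5.97 and -5.23 in C, with 1 of 4 arrays above background, and at -3.4, -2.25, -2.71 and -2.28 in MCD, the one group through which it passed the filter, a difference of 1.83 (SE 0.63, adjusted p = 0.0329) with overlap. Of 4 ligands of CXCR3 1 was higher: Pf4, released by platelets and expressed by macrophages, lay at -0.45, -0.78, -1.36 and -0.08 in C and 1.4, 0.94, 1.55 and 1.96 in MCD, a difference of 2.13 (SE 0.39, adjusted p = 0.000248), or 4.38-fold, without overlap. Cxcl10 differed by 1.62 (adjusted p = 0.071) and Cxcl9 by 0.72 (adjusted p = 0.274). None of the 3 tested ligands of CXCR2, the neutrophil receptor, passed. Ppbp differed by 0.25 (adjusted p = 0.779) and Cxcl1 by 0.26 (adjusted p = 0.833). Cxcl5 was above background on no C array and at least 2.02-fold higher by the mean of the MCD arrays (adjusted p = 0.23).

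Among the 5 homeostatic ligands tested, Ccl25, which guides lymphocytes through CCR9, was lower. It lay at 1.57, 2.11, 2.13 and 1.72 in C and at -0.62, 0.05, 0.15 and -0.09 in MCD, a difference of -2.01 (SE 0.31, adjusted p = 2.57e-05), or 4.03-fold lower, and every MCD array lay below every C array. The other kept probes for Ccl25 correlated with the one used at r = 0.799 and 0.823 over the 32 arrays, which share group and slide.

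Of the 9 receptors tested 3 were higher. Ccr7, which brings dendritic cells and T cells to lymphoid tissue, lay at -2.18, -2.02, -1.9 and -2.18 in C and -0.84, -0.78, -0.77 and -0.36 in MCD, a difference of 1.38 (SE 0.36, adjusted p = 0.00599). Cxcr3, carried by T and NK cells, lay at -2.29, -1.79, -2.85 and -2.54 in C and -0.90, -1.81, 0.02 and -0.88 in MCD, a difference of 1.47 (SE 0.31, adjusted p = 0.00106) in which MCD replicate 2 fell within the C values. Cx3cr1, carried by patrolling monocytes and hepatic macrophages, lay at -3.18, -2.79, -2.72 and -3.04 in C and -1.38, -1.05, -0.90 and 0.22 in MCD, a difference of 2.16 (SE 0.73, adjusted p = 0.0293). The groups did not overlap for Ccr7 or Cx3cr1. The monocyte receptor Ccr2 differed by 1.65 (adjusted p = 0.0593).

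Some markers of the cells that carry these genes also differed in this comparison. Of 8 markers of Kupffer cells and macrophages 6 were higher in MCD livers, and the log2 of their summed levels ran from 5.9 to 6.78 in C and from 6.95 to 8.46 in MCD. Of 5 tested monocyte markers 4 were higher, with summed levels of 7.51 to 7.85 in C and 7.6 to 8.42 in MCD. Of 10 neutrophil markers 3 were higher (summed level 5.8 to 6.53 in C, where 2 of the 10 were above background on no array, and 6.29 to 7.0 in MCD), and of 8 tested T and NK cell markers 2 were higher and 2 lower (summed level 6.14 to 7.23 in C and 4.13 to 4.41 in MCD). The part of these cells in the chemokine differences was not tested. With single arrays left out, Ccl2 lost its call without C before PH replicate 1 or MCD before PH replicate 1, 2 or 4 (adjusted p = 0.051 to 0.0823), Ccl24 without C before PH replicate 3 or MCD before PH replicate 1 (adjusted p = 0.0537 to 0.0604), Ccl17 without C before PH replicate 3 or 4 or MCD before PH replicate 2, 3 or 4 (adjusted p = 0.0574 to 0.134) and Cx3cr1 without C before PH replicate 1 or 4 or MCD before PH replicate 4 (adjusted p = 0.0555 to 0.0964). With normexp background correction Ccl7, Ccl3, Ccl4, Ccl24, Ccl17 and Cx3cr1 no longer passed (adjusted p = 0.0503 for Ccl24 to 0.716 for Ccl3).

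**Figure D1:**
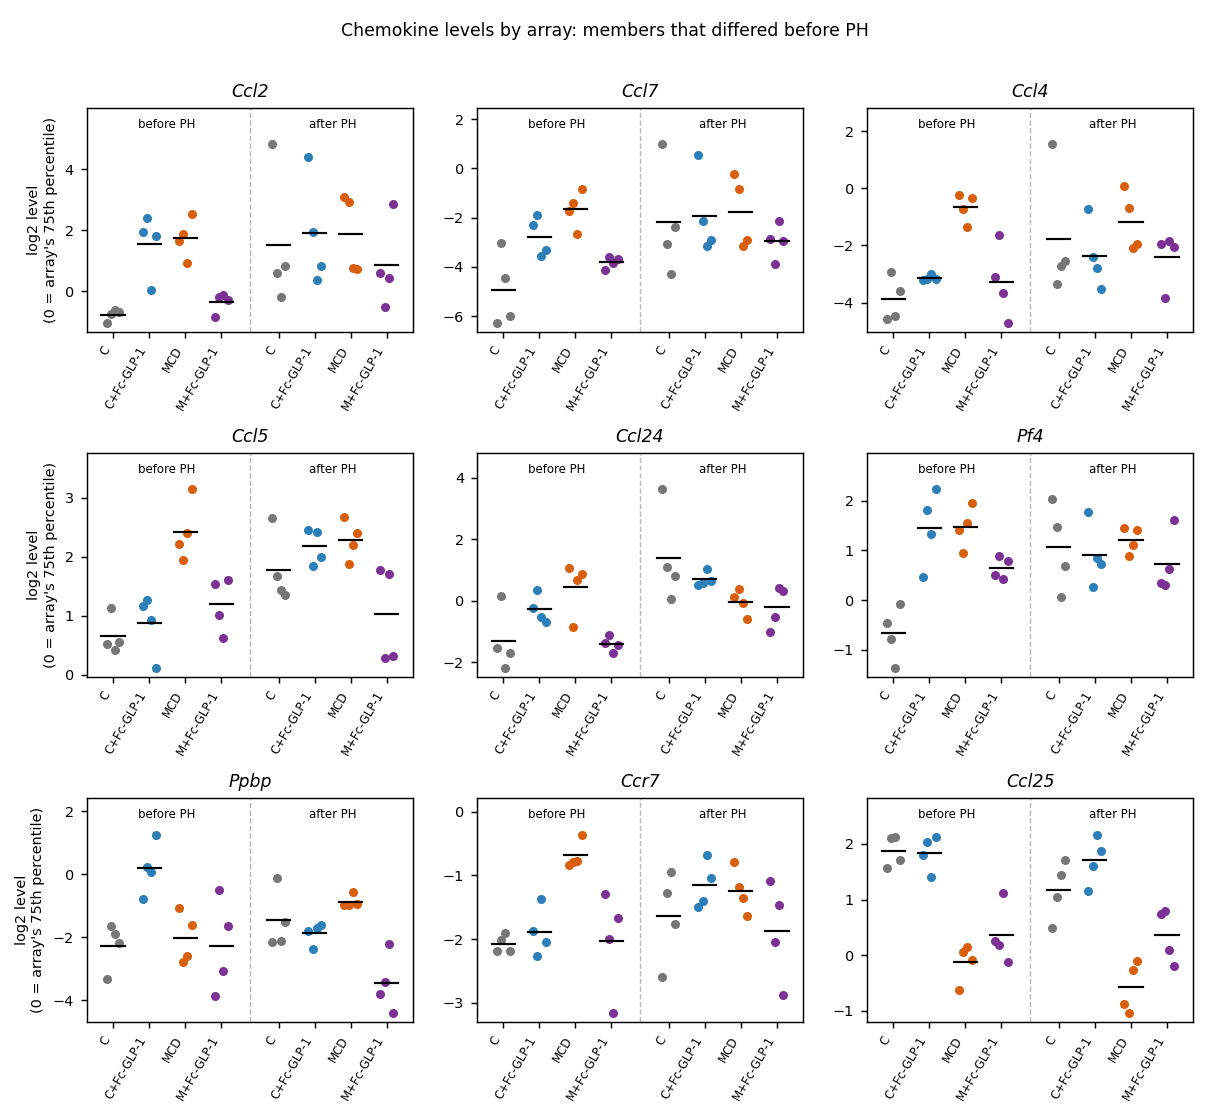
Levels of 9 members on all 32 arrays, in log2 units relative to each array's 75th percentile, with 1 point per array and a bar at each group's mean of 4 arrays. Before PH the MCD points lie above all C points for Ccl2, Ccl7, Ccl4, Ccl5, Pf4 and Ccr7 and below them for Ccl25, and the C+Fc-GLP-1 points lie above all C points for Pf4 and Ppbp.

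The effect of Fc-GLP-1 on chow was read from C+Fc-GLP-1 against C livers before PH, which lay on different slides. Of the 34 members, 2 were higher and none was lower, against 0.978% and 1.13% of all genes. Both were platelet chemokines that lie next to each other: the probe for Ppbp covers chr5:91198970-91199029 and that for Pf4 chr5:91202275-91202334 in build mm9. Genes called higher made up 46.4% of all calls, and 89.8% after centring on medians. That centring raised the difference of the median gene by 0.3 and left both genes called.

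Ppbp, a platelet ligand of CXCR2, lay at -3.33, -1.64, -1.9 and -2.18 on the C arrays and at -0.80, 0.22, 0.08 and 1.27 on the C+Fc-GLP-1 arrays. Pf4 lay at -0.45, -0.78, -1.36 and -0.08 and 0.46, 1.81, 1.32 and 2.22. For both genes every C+Fc-GLP-1 array was above every C array, with differences of 2.46 (SE 0.58, adjusted p = 0.0254) for Ppbp and 2.12 (SE 0.39, adjusted p = 0.00561) for Pf4, or 5.49- and 4.35-fold. Of 3 tested platelet markers, Treml1 was higher by 1.54 (adjusted p = 0.023), and the summed log2 level of the 3 was -0.79 to -0.13 in C and -0.17 to 1.76 in C+Fc-GLP-1. The part of platelets in this difference was not tested. Ccl2 differed by 2.31 (adjusted p = 0.136) without passing, and its 4 C+Fc-GLP-1 arrays, 1.93, 2.39, 0.06 and 1.81, all lay above the C arrays. Ccl7 differed by 2.16 (adjusted p = 0.174). Ppbp lost its call without C before PH replicate 1 or C+Fc-GLP-1 before PH replicate 2 or 4 (adjusted p = 0.0522 to 0.0854). In a fit to these 2 groups alone both lost it (adjusted p = 0.0656 for each).

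The effect of Fc-GLP-1 under the MCD diet was read from M+Fc-GLP-1 against MCD livers before PH, again on different slides. The M+Fc-GLP-1 arrays were dimmer, with a 75th percentile of the unscaled signal of 268 to 338 against 442 to 564 in MCD. On them 22 to 30 members were above background, against 31 to 36 in MCD. The part of array brightness here was not tested either. No member was higher and 5 were lower in M+Fc-GLP-1, against 4.43% and 2.79% of all genes: the ligands Ccl4, Ccl5, Ccl24 and Xcl1 and the receptor Ccr7. Of the 34 members 31 had a negative difference, with a median of -0.91 against 0.10 over all genes. Among the 31 were Ccl3, Ccl17, Xcl1 and Cxcr4, which passed the filter through MCD livers before PH alone. The median of the 30 members left without them was also -0.91. The share of all genes with a negative difference was not computed, so the count of 31 has no background. Of all genes called, 61.4% were higher, and 16.3% after centring on medians, which lowered the difference of the median gene by 0.32.

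Ccl4 was above background on none of the 4 M+Fc-GLP-1 arrays, with measured values of -3.09, -1.63, -3.65 and -4.71. The MCD values were -0.25, -0.74, -1.37 and -0.33. The measured means differed 6.04-fold (adjusted p = 0.0373). That fold is no bound, because it rests on signals not above background, and it was not reached with normexp background correction. Ccl5 lay at 1.54, 1.02, 0.63 and 1.61 in M+Fc-GLP-1, below all MCD arrays, a difference of -1.22 (SE 0.35, adjusted p = 0.035). Ccl24 lay at -1.37, -1.11, -1.7 and -1.45, a difference of -1.85 (SE 0.53, adjusted p = 0.0332). Xcl1, an attractant of cross-presenting dendritic cells made by NK and T cells, was above background on all 4 MCD arrays (-3.14, -3.88, -2.4 and -2.69) and on no M+Fc-GLP-1 array (-5.24, -4.04, -5.45 and -5.68). It was at least 2.16-fold lower (adjusted p = 0.0479), a bound not reached with normexp background correction (difference -0.22). Xcl1 passed the filter through the MCD group alone, so that 4 of 30 members were lower without the members kept through that group. Ccr7 lay at -1.29, -2.0, -3.16 and -1.66 in M+Fc-GLP-1, a difference of -1.34 (SE 0.36, adjusted p = 0.0253). For all 5 members the groups did not overlap.

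The other members raised by the diet did not pass in this comparison: Ccl2 differed by -2.09 (adjusted p = 0.126), Ccl7 by -2.16 (adjusted p = 0.122), Ccl3 by -1.36 (adjusted p = 0.267), Ccl6 by -0.93 (adjusted p = 0.308), Pf4 by -0.81 (adjusted p = 0.206) and Cx3cr1 by -1.17 (adjusted p = 0.337). Ccl25 differed by 0.49 (adjusted p = 0.334). These values share the MCD arrays with the comparison of diets. The spread in the fit was pooled over all 8 groups. For Ccl2 the SD was 0.66 in MCD and 0.33 in M+Fc-GLP-1 before PH, against 2.23 in C livers after PH. In a fit to only the groups compared, 8 members were lower and none higher, with 6.86% of all genes called in either direction. Ccr7 no longer passed there (adjusted p = 0.0547). Of the 8 markers of Kupffer cells and macrophages 4 were lower, and their summed log2 level in M+Fc-GLP-1 was 5.6 to 6.93 against 6.95 to 8.46 in MCD. Of 10 neutrophil markers 1 was higher (Ly6g) and 2 lower (S100a8 and S100a9), with summed levels of 6.29 to 7.0 in MCD and 6.77 to 7.11 in M+Fc-GLP-1. Summed levels of B and plasma cell markers were 1.89 to 3.36 in MCD and -0.50 to 0.72 in M+Fc-GLP-1, those of dendritic cell markers 6.31 to 6.66 and 5.55 to 6.12, and those of T and NK cell markers 4.13 to 4.41 and 4.58 to 5.87, all without overlap. Their part in the differences was not tested. With normexp background correction Ccl4 (-0.73, adjusted p = 0.263), Ccl24 (-1.2, 0.0689), Xcl1 (-0.22, 0.569) and Ccr7 (-0.53, 0.0677) no longer passed, and 1 member was higher and 1 lower. Within limma refits, Ccl4 lost its call without MCD before PH replicate 1, 2 or 4 or M+Fc-GLP-1 before PH replicate 1, 3 or 4 (adjusted p = 0.0677 to 0.116), Ccl5 without MCD before PH replicate 1, 3 or 4 or M+Fc-GLP-1 before PH replicate 2 or 3 (adjusted p = 0.0603 to 0.119), Ccl24 without MCD before PH replicate 1, 3 or 4 or M+Fc-GLP-1 before PH replicate 1, 3 or 4 (adjusted p = 0.0613 to 0.109), Xcl1 without MCD before PH replicate 1, 3 or 4 or M+Fc-GLP-1 before PH replicate 1, 3 or 4 (adjusted p = 0.0968 to 0.119) and Ccr7 without MCD before PH replicate 1 or 4 or M+Fc-GLP-1 before PH replicate 3 (adjusted p = 0.0555 to 0.12). The count of 5 fell to 0 without MCD replicate 1, MCD replicate 4 or M+Fc-GLP-1 replicate 3 and to 2 without MCD replicate 3 or M+Fc-GLP-1 replicate 1 or 4, and M+Fc-GLP-1 replicate 2 had the smallest share of spots above background of all arrays (37.7%).

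Diet under treatment was read from M+Fc-GLP-1 against C+Fc-GLP-1 livers before PH, on 1 slide. One member was higher and 3 were lower, against 5.35% and 5.01% of all genes, and the members' median difference was -0.14. In all, 51.6% of the genes called were higher, and 24.5% after centring on medians. Cxcl12, which retains leukocytes and stem cells through CXCR4, lay at 5.45, 5.56, 5.37 and 5.43 in C+Fc-GLP-1 and 6.56, 7.08, 7.07 and 5.74 in M+Fc-GLP-1, a difference of 1.16 (SE 0.33, adjusted p = 0.0203). The second kept probe for Cxcl12 correlated with it at r = 0.522, and with the mean of both probes the gene no longer passed (adjusted p = 0.41).

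Ccl9, a rodent ligand of CCR1, was lower in M+Fc-GLP-1, at 4.97, 5.0, 5.2 and 4.42 in C+Fc-GLP-1 and 4.32, 3.4, 3.68 and 3.42 in M+Fc-GLP-1, a difference of -1.19 (SE 0.39, adjusted p = 0.0464). Ccl25 lay at 1.8, 2.03, 1.41 and 2.13 in C+Fc-GLP-1 and 0.26, 0.19, 1.13 and -0.12 in M+Fc-GLP-1, a difference of -1.48 (SE 0.31, adjusted p = 0.00173). The groups did not overlap for Cxcl12, Ccl9 or Ccl25. Ppbp lay at -3.87, -0.49, -3.06 and -1.64 in M+Fc-GLP-1, where 2 of 4 arrays were above background, a difference of -2.46 (SE 0.58, adjusted p = 0.00566) with replicate 2 of M+Fc-GLP-1 inside the C+Fc-GLP-1 values. Of the 3 tested platelet markers, Treml1 differed by -1.39 (adjusted p = 0.0101). The summed log2 level of the 3 was -0.17 to 1.76 in C+Fc-GLP-1 and -1.35 to 0.29 in M+Fc-GLP-1, with overlap. The part of platelets was not tested. Ccl9 lost its call without C+Fc-GLP-1 before PH replicate 1, 2 or 3 or M+Fc-GLP-1 before PH replicate 2, 3 or 4 (adjusted p = 0.0799 to 0.12), and Cxcl12 without M+Fc-GLP-1 before PH replicate 2 or 3 (adjusted p = 0.0626 to 0.0756). Ccl9 and Cxcl12 also lost it with normexp background correction (adjusted p = 0.37 and 0.197) and the authors' values (0.268 and 0.168). Ccl9 lost it with quantile normalization (0.061) and dim probes kept in (0.0874), and Cxcl12 with median centring (0.0577). In a fit to only the groups compared, Cxcl12 (0.0547) and Ppbp (0.064) no longer passed.

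**Figure D2:**
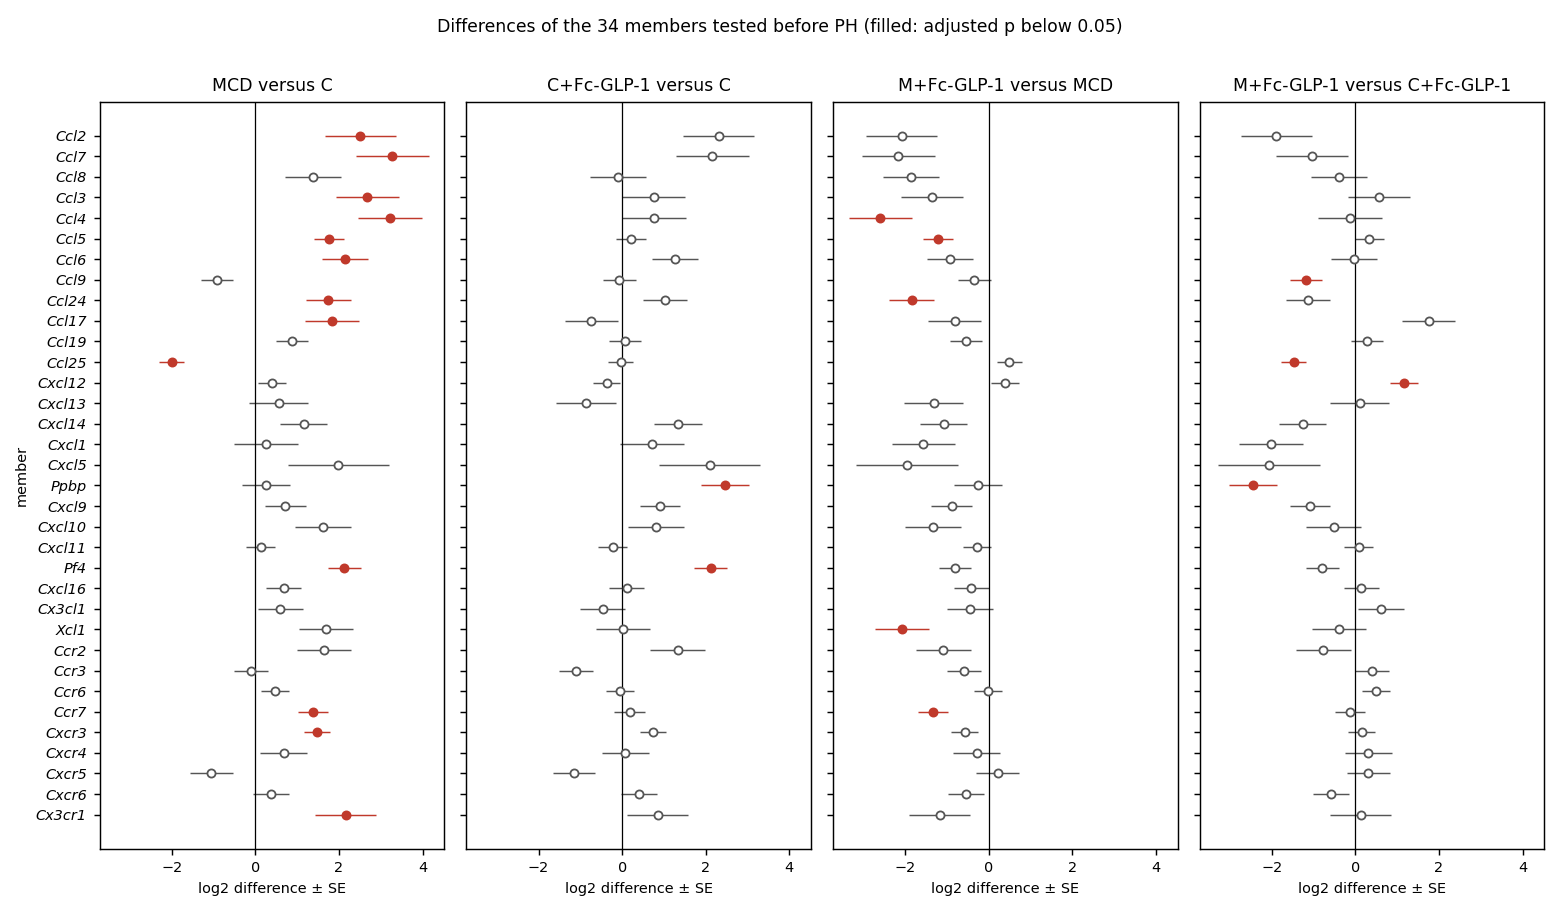
Log2 difference ± SE of the 34 tested members in the 4 pairwise comparisons before PH, each between groups of 4 arrays, with filled red points where the adjusted p was below 0.05. The MCD panel has 12 filled points to the right of 0 and 1 to the left, and the M+Fc-GLP-1 versus MCD panel has 5 filled points, all to the left.

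Whether Fc-GLP-1 acted differently on the 2 diets before PH was tested as an interaction, the difference of M+Fc-GLP-1 from MCD minus that of C+Fc-GLP-1 from C. In all, 5 ligands had a negative interaction and no member a positive one, against 2.56% and 3.59% of all genes. They were Ccl2 at -4.4 (SE 1.2, adjusted p = 0.0298), Ccl7 at -4.33 (SE 1.23, adjusted p = 0.0353), Ccl24 at -2.88 (SE 0.75, adjusted p = 0.0243), Ppbp at -2.71 (SE 0.82, adjusted p = 0.0456) and Pf4 at -2.93 (SE 0.56, adjusted p = 0.00396). The members' median interaction was -1.65, against 0.15 over all genes. Ccl3, Ccl17, Xcl1 and Cxcr4 count in that median and passed the filter through MCD livers before PH alone. Those livers enter the interaction with a minus sign, and the median without these members was not computed. None of the 5 ligands called is among them. Genes called positive made up 58.3% of all calls, and 5.81% after centring on medians, which moved the median gene by -0.63 and the members' median to -2.27.

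The C+Fc-GLP-1 minus C and M+Fc-GLP-1 minus MCD differences of these 5 ligands stood at 2.31 and -2.09 for Ccl2, 2.16 and -2.16 for Ccl7, 1.03 and -1.85 for Ccl24, 2.46 and -0.25 for Ppbp, and 2.12 and -0.81 for Pf4. Means were -0.77 ± 0.19 (SD, n = 4) for Ccl2 in C, 1.55 ± 1.03 in C+Fc-GLP-1, 1.74 ± 0.66 in MCD and -0.35 ± 0.33 in M+Fc-GLP-1. Ccl2 on the M+Fc-GLP-1 arrays, -0.83, -0.17, -0.12 and -0.28, lay below every MCD array, and 3 of the 4 lay above every C array. Ccl7 on those arrays lay at -4.15, -3.6, -3.86 and -3.68, with 2 of 4 above background. Pf4 in M+Fc-GLP-1, 0.50, 0.89, 0.42 and 0.79, lay below every MCD array and above every C array.

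Of 8 markers of Kupffer cells and macrophages 4 had a negative interaction, as did 2 of 5 monocyte and 2 of 10 neutrophil markers, and their part was not tested. The Pf4 call held in every refit. With normexp background correction Ccl2 (-3.82, adjusted p = 0.06), Ccl7 (-1.24, 0.29), Ccl24 (-2.19, 0.0765) and Ppbp (-1.05, 0.184) no longer passed. Leaving out single arrays, Ccl2 lost its call without C before PH replicate 1 or MCD before PH replicate 1 or 4 or C+Fc-GLP-1 before PH replicate 2 or 4 or M+Fc-GLP-1 before PH replicate 1 (adjusted p = 0.0514 to 0.0571), Ccl7 without C before PH replicate 1 or 4 or MCD before PH replicate 1, 2 or 4 or C+Fc-GLP-1 before PH replicate 1 or 2 or M+Fc-GLP-1 before PH replicate 1, 3 or 4 (adjusted p = 0.05 to 0.0771), Ccl24 without MCD before PH replicate 1 (adjusted p = 0.0544) and Ppbp without C before PH replicate 1 or 4 or MCD before PH replicate 1, 3 or 4 or C+Fc-GLP-1 before PH replicate 2, 3 or 4 or M+Fc-GLP-1 before PH replicate 1 or 3 (adjusted p = 0.0514 to 0.101).

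After PH, the diet was compared in MCD against C livers, on different slides. One member was higher and 3 were lower, against 6.04% and 6.08% of all genes, and the members' median difference was 0.13. Of all genes called, 49.8% were higher, and 61.9% after centring on medians. Cxcl13, the B cell attractant that acts through CXCR5, was the one that was higher. It lay at -3.92, 0.59, -1.02 and -2.04 in C and at 1.73, 2.68, 3.11 and 2.61 in MCD, a difference of 4.13 (SE 0.71, adjusted p = 0.000217), or 17.5-fold, with every MCD array above every C array. Ccl25 was again lower in MCD, at 0.48, 1.04, 1.45 and 1.71 in C and -0.87, -1.04, -0.27 and -0.11 in MCD, a difference of -1.74 (SE 0.31, adjusted p = 0.000294) without overlap.

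Cxcl14, a homeostatic ligand expressed in epithelia and stroma, lay at 4.44, 2.53, 1.25 and 2.95 in C and 1.03, 0.09, 0.63 and 1.01 in MCD, a difference of -2.1 (SE 0.56, adjusted p = 0.0136). Cxcl9, induced by interferon gamma, lay at 4.24, 1.14, 1.39 and 1.53 in C and 1.51, 0.14, 0.03 and 0.59 in MCD, a difference of -1.51 (SE 0.48, adjusted p = 0.0372) with overlap. C replicate 1 was the highest C array for both. Without C replicate 1 the difference was -1.55 (adjusted p = 0.0588) for Cxcl14 and -0.79 (adjusted p = 0.183) for Cxcl9. Cxcl14 also lost its call without MCD replicate 2, and Cxcl9 without MCD replicate 2, 3 or 4 (adjusted p = 0.0613 to 0.183 over the 4 arrays named). Of 10 neutrophil markers 6 were higher in MCD, with summed log2 levels of 6.63 to 6.88 in C and 7.12 to 8.38 in MCD, and of 5 tested monocyte markers 1. Of the 5 B and plasma cell markers none passed, with summed levels of 0.69 to 3.48 in C and 2.18 to 2.62 in MCD.

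**Figure D3:**
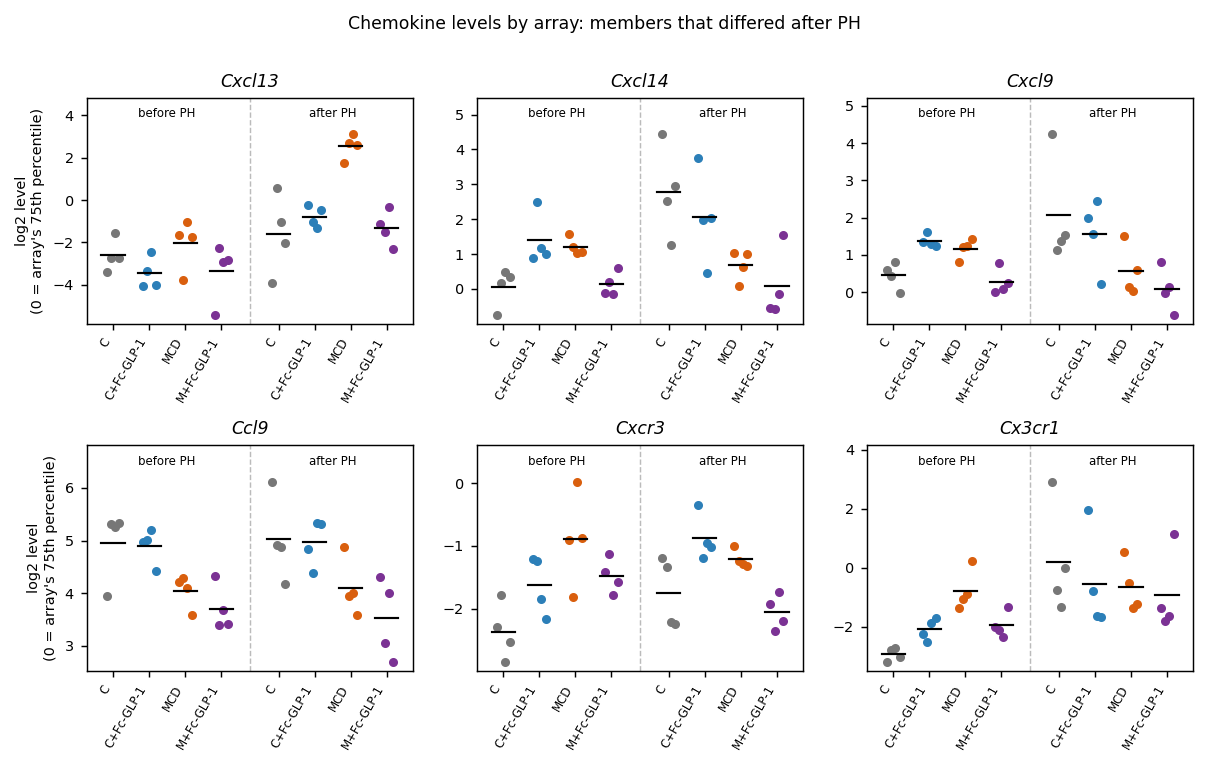
Levels of 6 members on all 32 arrays, in log2 units relative to each array's 75th percentile, with 1 point per array and a bar at each group's mean of 4 arrays. After PH the 4 MCD points of Cxcl13, from 1.73 to 3.11, lie above the points of every other group, and the highest of the 4 C points is replicate 1 for Cxcl14, Cxcl9 and Cx3cr1.

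M+Fc-GLP-1 against MCD livers after PH, on different slides, had no member higher and 3 lower, against 3.71% and 2.79% of all genes. The members' median difference was -0.56. In all, 57.1% of the genes called were higher, and 41% after centring on medians. Cxcl13 lay at -1.12, -1.51, -0.35 and -2.33 in M+Fc-GLP-1, below all 4 MCD arrays, a difference of -3.86 (SE 0.71, adjusted p = 0.00149), or 14.5-fold lower. Ppbp lay at -0.97, -0.97, -0.58 and -0.94 in MCD and -3.79, -3.42, -2.2 and -4.4 in M+Fc-GLP-1, where 2 of 4 arrays were above background, a difference of -2.59 (SE 0.58, adjusted p = 0.00708). Ccl5 lay at 2.67, 1.88, 2.2 and 2.4 in MCD and 1.78, 0.29, 1.71 and 0.33 in M+Fc-GLP-1, a difference of -1.26 (SE 0.35, adjusted p = 0.0302). The groups did not overlap for any of the 3.

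Ccl2 in these 2 groups lay at 3.08, 2.94, 0.78 and 0.75 in MCD and 0.60, -0.51, 0.45 and 2.86 in M+Fc-GLP-1, values that overlapped, with a difference of -1.03 (adjusted p = 0.507). Of the 10 neutrophil markers 8 were lower in M+Fc-GLP-1, with a summed log2 level of 6.16 to 6.99, among them S100a8 with -3.59 (adjusted p = 0.00179). Of the 8 markers of Kupffer cells and macrophages 2 were lower, with summed levels of 7.8 to 8.95 in MCD and 7.47 to 7.97 in M+Fc-GLP-1, and of the 5 B and plasma cell markers 1 was lower, with summed levels of 2.18 to 2.62 in MCD and 0.04 to 1.5 in M+Fc-GLP-1. The part of these cell types was not tested. Of the 3 tested platelet markers none passed, with summed levels of -0.96 to -0.32 and -1.31 to -0.87. Ccl5 lost its call without MCD after PH replicate 1, 3 or 4 or M+Fc-GLP-1 after PH replicate 2 or 4 (adjusted p = 0.0513 to 0.115), and the calls of Cxcl13 and Ppbp held in every refit.

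M+Fc-GLP-1 against C+Fc-GLP-1 livers after PH, on 1 slide, had no member higher and 7 lower, against 6.2% and 6.62% of all genes. They were the ligands Ccl5, Ccl9, Ccl25, Cxcl14 and Cxcl9 and the receptors Ccr6 and Cxcr3. The members' median difference was -0.74, against -0.01 over all genes. The source labels of these groups do not name the same agent after PH. Ccl9 lay at 4.85, 4.39, 5.33 and 5.32 in C+Fc-GLP-1 and 4.31, 3.06, 4.01 and 2.7 in M+Fc-GLP-1, a difference of -1.45 (SE 0.39, adjusted p = 0.012). Ccl25 lay at 1.16, 1.61, 2.17 and 1.88 and 0.75, 0.80, 0.10 and -0.20, a difference of -1.34 (SE 0.31, adjusted p = 0.00353). Ccl5 lay at 2.45, 1.84, 2.43 and 2.0 in C+Fc-GLP-1, a difference of -1.15 (SE 0.35, adjusted p = 0.029). In these 3 ligands every M+Fc-GLP-1 array lay below every C+Fc-GLP-1 array.

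Cxcl14 lay at 3.77, 1.99, 0.44 and 2.05 in C+Fc-GLP-1 and -0.54, -0.59, -0.15 and 1.56 in M+Fc-GLP-1, a difference of -1.99 (SE 0.56, adjusted p = 0.0175). Cxcl9 lay at 2.0, 1.57, 2.44 and 0.23 and 0.81, -0.01, 0.13 and -0.60, a difference of -1.48 (SE 0.48, adjusted p = 0.0397). Both ligands overlapped between the groups. Ccr6, which brings B cells, regulatory and Th17 cells toward CCL20, lay at -2.12, -3.29, -1.76 and -2.21 in C+Fc-GLP-1 and -4.19, -3.28, -3.1 and -3.19 in M+Fc-GLP-1, a difference of -1.09 (SE 0.34, adjusted p = 0.0297) with overlap. Cxcr3 lay at -0.34, -1.19, -0.95 and -1.02 and -1.93, -2.35, -1.73 and -2.2, a difference of -1.18 (SE 0.31, adjusted p = 0.0119) without overlap.

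Some lymphocyte markers were lower in the same comparison, and the summed levels of both lists overlapped between the groups. Of the 5 B and plasma cell markers 3 were lower, among them Cd79b and Ms4a1, with summed log2 levels of 1.47 to 2.32 in C+Fc-GLP-1 and 0.04 to 1.5 in M+Fc-GLP-1. Of the 8 tested T and NK cell markers 2 were lower (Cd3d and Cd3g), with summed levels of 5.3 to 6.1 and 4.26 to 5.32. Their part was not tested. The count of 7 fell to 2 without C+Fc-GLP-1 replicate 1, to 4 without C+Fc-GLP-1 replicate 3 or M+Fc-GLP-1 replicate 2, and to 4 without C and C+Fc-GLP-1 replicates 1 together, when Ccl5 (adjusted p = 0.0535), Cxcl14 (0.0521) and Ccr6 (0.0578) no longer passed. Single calls were lost as follows: Ccl5 without C+Fc-GLP-1 after PH replicate 1 or 3 or M+Fc-GLP-1 after PH replicate 2 or 4 (adjusted p = 0.0766 to 0.128), Ccl9 without M+Fc-GLP-1 after PH replicate 4 (adjusted p = 0.0558), Cxcl14 without C+Fc-GLP-1 after PH replicate 1 or M+Fc-GLP-1 after PH replicate 1 or 2 (adjusted p = 0.062 to 0.0968), Cxcl9 without C+Fc-GLP-1 after PH replicate 1, 2 or 3 or M+Fc-GLP-1 after PH replicate 2, 3 or 4 (adjusted p = 0.0691 to 0.151), Ccr6 without C+Fc-GLP-1 after PH replicate 1, 3 or 4 or M+Fc-GLP-1 after PH replicate 1 (adjusted p = 0.0709 to 0.132) and Cxcr3 without C+Fc-GLP-1 after PH replicate 1 (adjusted p = 0.0506). C+Fc-GLP-1 against C livers after PH had no member called, against 1.13% higher and 0.925% lower of all genes. Of all genes called there, 55.1% were higher, and 67% after centring on medians.

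The change over time from before to 2 weeks after PH was compared within each regimen, always across slides. In C livers 9 members were higher after PH and none lower, against 6.09% and 7.87% of all genes: Ccl7, Ccl5, Ccl6, Ccl24, Cxcl14, Cxcl9, Pf4, Ccr2 and Cx3cr1. The members' median change was 0.71, against -0.08 over all genes. Genes called higher made up 43.6% of all calls, and 64.3% after centring on medians, which raised the change of the median gene by 0.16. Cx3cr1 lay at -3.18, -2.79, -2.72 and -3.04 before and 2.92, -0.75, -1.32 and 0 after PH, a change of 3.14 (SE 0.73, adjusted p = 0.00511), or 8.83-fold, without overlap. Cxcl14 lay at -0.74, 0.16, 0.47 and 0.34 before and 4.44, 2.53, 1.25 and 2.95 after, a change of 2.73 (SE 0.56, adjusted p = 0.00204) without overlap. Ccl7 lay at -6.28, -3.03, -4.45 and -5.99 before and 0.97, -3.07, -4.29 and -2.39 after, a change of 2.75 (SE 0.87, adjusted p = 0.0332) with overlap.

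The other 6 changes were 2.7 (adjusted p = 0.00144) for Ccl24, 2.4 (adjusted p = 0.00464) for Ccl6, 2.14 (adjusted p = 0.027) for Ccr2, 1.73 (adjusted p = 0.00435) for Pf4, 1.62 (adjusted p = 0.0238) for Cxcl9 and 1.12 (adjusted p = 0.0334) for Ccl5. C replicate 1 after PH had the highest value of its group for all 9. Without it the count was 5, and Ccl7 (adjusted p = 0.192), Ccl5 (0.158), Cxcl9 (0.15) and Ccr2 (0.164) no longer passed, while the change of Cx3cr1 was 2.24 and that of Cxcl14 2.18. The count was also 5 without C replicate 4 before PH. In a fit to only these groups Ccl7, Ccl5, Ccl6, Ccl24, Cxcl9, Pf4 and Ccr2 no longer passed (adjusted p = 0.0515 for Pf4 to 0.15 for Ccl7), which left 2. With before and after PH paired by number the count was also 9, but not of the same members. Ccl7 no longer passed (adjusted p = 0.051), and a member not called in the main fit did. Further losses were Ccl7 without C replicate 1 or 4 before PH or C replicate 4 after PH, Ccl5 without C replicate 1, 3 or 4 before PH or replicate 2 after PH, Cxcl9 without C replicate 4 before PH, and Ccr2 without C replicate 3 or 4 before PH, at adjusted p between 0.0522 (Ccl5) and 0.192 (Ccl7) over these arrays. All 8 markers of Kupffer cells and macrophages were higher after PH, with summed log2 levels of 5.9 to 6.78 before and 7.08 to 9.21 after, and their part was not tested.

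In MCD livers Cxcl13 was the one member that changed, against 6.21% of all genes called higher and 3.22% called lower. It lay at -1.66, -3.77, -1.04 and -1.73 before PH and 1.73, 2.68, 3.11 and 2.61 after, a change of 4.58 (SE 0.71, adjusted p = 0.000178), or 23.9-fold, without overlap and held in every refit. Of the 10 neutrophil markers 7 were also higher after PH, with summed levels of 6.29 to 7.0 before and 7.12 to 8.38 after, and the summed levels were 4.13 to 4.41 before and 4.99 to 5.46 after for T and NK cells, -0.98 to -0.09 and 0.22 to 1.3 for mesothelium and 1.89 to 3.36 and 2.18 to 2.62 for B and plasma cells. Their part was not tested. The differences of Ccl2, Ccl7 and Cx3cr1 in MCD livers were 0.15 (adjusted p = 0.943), -0.12 (adjusted p = 0.955) and 0.13 (adjusted p = 0.943). Under treatment the change of Cxcl13 was 2.69 (adjusted p = 0.0637) in C+Fc-GLP-1 and 2.04 (adjusted p = 0.138) in M+Fc-GLP-1 and did not pass in either. No member was called over time in C+Fc-GLP-1, against 0.479% higher and 0.356% lower of all genes. None was called in M+Fc-GLP-1, against 0.821% and 0.892%. The interaction of diet and time under Fc-GLP-1 called no member, against 0.0475% of all genes in each direction. The share of higher calls among all genes moved under centring on medians from 65.8% to 51.6% in MCD, from 57.4% to 36.8% in C+Fc-GLP-1, from 47.9% to 65.4% in M+Fc-GLP-1 and from 50% to 83.3% in that interaction.

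**Figure D4:**
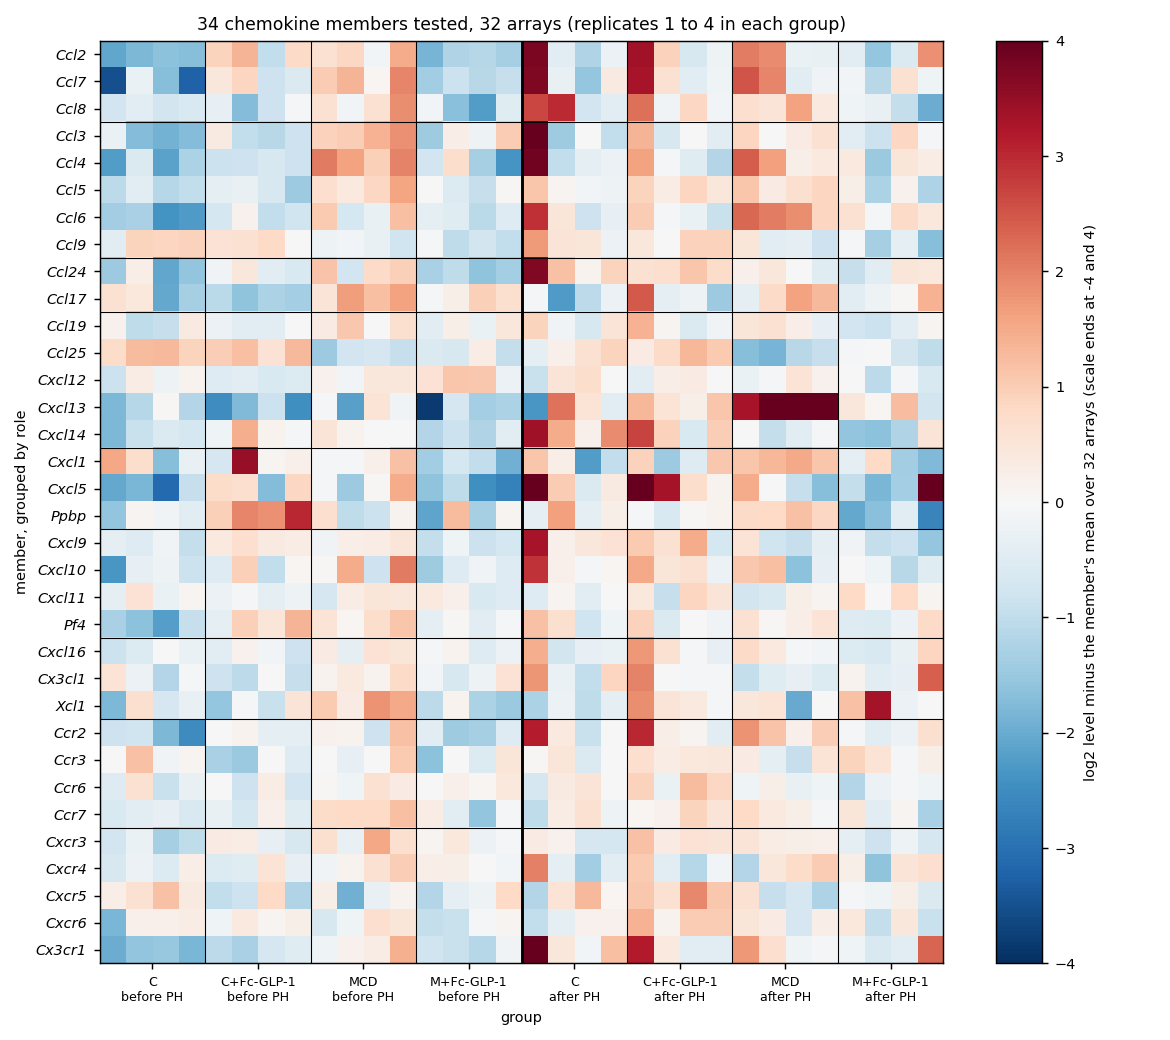
Each row is 1 of the 34 tested members and each column 1 of the 32 arrays, coloured by the log2 level minus the member's mean over all arrays, with colours ending at -4 and 4. Replicate 1 of C and of C+Fc-GLP-1 after PH are red over many rows, and Cxcl13 is red on the 4 MCD arrays after PH.

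The 7 other members were not tested. Ccl11, Ccl20 and Ccr1 were above background on no array, Ccl22 and Cxcl2 on 1 array each and Ccl12 on 13, so no statement on their change can be made at this signal. The only probe for Cxcr2 was dropped for an outlier flag on C replicate 2 before PH, although it was above background on 24 arrays. Another 12 members were tested and called in no comparison: Ccl8, Ccl19, Cxcl1, Cxcl5, Cxcl10, Cxcl11, Cxcl16, Cx3cl1, Ccr3, Cxcr4, Cxcr5 and Cxcr6. The closest was Cxcl5, a neutrophil attractant, which was above background on no C array before PH and on 3 of 4 after it. By the mean of the C arrays after PH it was at least 5.39-fold higher (adjusted p = 0.0585). That mean was raised by replicate 1, at 1.04, against -2.89, -4.48 and -3.52 on the others. Cxcl11 was above background on every array, but its second probe correlated with the first at r = 0.155 over 32 arrays and its level is uncertain. The probes for Ccl19 correlated at r = 0.587 and 0.571, and near-identical copies of this gene leave its level uncertain too.

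Genes of the wider chemokine pathway, which are no members, were counted in 3 lists. Of 22 further chemokines and receptors 11 were tested. Ccl27a, an epithelial ligand of CCR10, was lower under MCD in all 4 comparisons of diet, with differences of -2.1 (adjusted p = 1.03e-05) and -1.11 (adjusted p = 0.0159) before PH and -1.74 (adjusted p = 0.000218) and -1.99 (adjusted p = 3.31e-05) after it. Ccl1 was lower in MCD, at -1.8 (adjusted p = 0.0012), and in C+Fc-GLP-1, at -2.35 (adjusted p = 0.0022), both against C before PH.

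Of 23 tested among 25 genes of signalling below chemokine receptors, 6 were higher and 2 lower in MCD than in C before PH, and against MCD the M+Fc-GLP-1 livers had 5 lower and none higher, against the 10.9% and 15.5%, and 2.79% and 4.43%, of all genes given for these comparisons. The latter included Pik3r5, Rac2, Fgr and Lyn, with Lyn, a Src family kinase of myeloid and B cells, at -2.23 (adjusted p = 0.00239). After PH the same comparison had 6 lower and none higher, against 2.79% and 3.71% of all genes. Of 18 upstream inducers, all tested, Tnfaip3, an inhibitor of NF-kB signalling that NF-kB induces, and Tlr2 were higher in MCD than in C before PH, by 2.38 (adjusted p = 0.00203) and 1.53 (adjusted p = 0.0315), and Myd88 was lower. Of all genes, 10.9% were called higher and 15.5% lower there. Il1b, a cytokine that induces many of these ligands, was lower in M+Fc-GLP-1 livers, against MCD before PH (-2.66, adjusted p = 0.00146) and against C+Fc-GLP-1 before PH (-2.61, adjusted p = 0.000436) and after PH (-2.32, adjusted p = 0.00122), and had an interaction of -3.42 (adjusted p = 0.00512). The summed log2 level of the 18 inducers overlapped in each of these pairwise comparisons. Before PH it was 6.69 to 7.01 in MCD and 6.76 to 7.06 in M+Fc-GLP-1.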

How the data were processed

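RNA of 32 mouse livers was hybridised to 1-colour Agilent arrays. The deposited intensity values were background-subtracted processed signals from Agilent's feature extraction software. The authors also deposited log2 values, made with limma and normalized separately before and after PH, which were used as an alternative within each time only. Here, log2 processed signals had each array's 75th percentile subtracted, spots with outlier flags were left out (426 probes dropped), and spots of a probe were averaged. A probe was kept when some group had over 50% of its spots well above background on each of its 4 arrays, and the brightest kept probe stood for its gene, which left 28937 probes and 21073 genes. Names were updated through RefSeq accessions for 27656 of 55681 probes, and no member was renamed. No probe was saturated. Summed marker levels are the log2 of the summed linear levels of a list's tested genes. A fold is given as a bound where no array of a group was above background. Each such array was set to the lowest level of any probe above background on it. The probe's own level was used where that was higher. This limit is not specific to the probe. For Ccl4 in M+Fc-GLP-1 livers before PH it changed nothing, so that fold is given as measured. Such a bound is for group means of the processed signals and does not hold under every alternative. Limma 3.58.1 in R 4.3.3 fitted 8 groups, with 12 pairwise contrasts and 2 interactions and Benjamini-Hochberg adjustment over all genes tested at 0.05. The fit was tested on simulated data. The number of arrays limits the precision, and p-values measure the spread between the labelled biological replicates, pooled over all 8 groups. Arrays that stood apart after PH therefore also entered the error of comparisons before PH. The members, lists and markers were chosen with earlier results of these data known. Values on each array are given for members called in a comparison of diet or treatment, and other members by their differences. The alternatives were normexp background correction, quantile normalization, median centring, the authors' values, dim probes kept in, probes of a gene averaged, a fit to only the groups compared, a replicate block and leaving out each array in turn. Left out together, replicate 1 of C and of C+Fc-GLP-1 after PH formed an alternative chosen after seeing the data, as did a block pairing before and after PH by number within a regimen. Results for some genes of the lists are not reported here.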

Additional observations from a re-analysis of the deposited data

Results flagged for a closer look

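Among the 22 members called in a comparison, each group of 4 arrays was searched for an array whose gap to its nearest neighbour, as a share of the group's range, exceeded Dixon's critical value for 4 samples. Chance flags about 1 in 20 groups, and 10 of the 176 groups were flagged. In C livers before PH, replicate 1 stood apart for Ccl3 (high, gap share 0.905) and for Ccl9 (low, 0.942). In C livers after PH, replicate 1 stood apart for Ccl4 (high, 0.841) and for Cxcl9 (high, 0.874). In M+Fc-GLP-1 livers after PH, replicate 2 was low for Ccl4 (0.904), replicate 4 high for Cx3cr1 (0.852) and replicate 1 low for Ccr6 (0.84). Replicate 3 of M+Fc-GLP-1 before PH was low for Ccl6 (0.835), replicate 4 of MCD before PH high for Ccr7 (0.872) and replicate 3 of MCD after PH high for Ppbp (0.907).

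The effect of Fc-GLP-1 before PH differed between the diets for 5 ligands by the limma interaction term, which was -4.40 for Ccl2, -4.33 for Ccl7, -2.88 for Ccl24, -2.71 for Ppbp and -2.93 for Pf4 on the log2 scale.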

How the results depend on the processing

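The 53 member changes called were refitted 908 times in all: 710 kept direction and call, 198 lost the call and 0 reversed. Of the 53, 16 were kept in every refit and 37 were lost in at least 1. By setting, normexp background correction lost 21 calls, a fit to only the groups compared 20, the authors' values 10, no filter on dim probes 9, both doubted arrays left out 8, the mean over probes 3, and median centring and quantile normalization 2 each. The cause was not tested. Counts of members called moved by over 1.5 times as follows. With normexp, M+Fc-GLP-1 versus MCD before PH had 2, 1 of them higher (5 as reported), M+Fc-GLP-1 versus C+Fc-GLP-1 before PH 2 (4), MCD over time 2 (1), C+Fc-GLP-1 over time 2 (0) and the interaction before PH 1 (5). With the authors' values, C+Fc-GLP-1 versus C before PH had 9 (2), M+Fc-GLP-1 versus MCD before PH 8, M+Fc-GLP-1 versus C+Fc-GLP-1 after PH 2 (7) and the interaction before PH 8. With only the groups compared, C+Fc-GLP-1 versus C before PH had 0, M+Fc-GLP-1 versus MCD before PH 8, MCD versus C after PH 2 (4), C over time 2 (9), MCD over time 2, C+Fc-GLP-1 over time 1 and the interaction before PH 11. Without the filter, M+Fc-GLP-1 versus C+Fc-GLP-1 after PH had 4, C+Fc-GLP-1 over time 1 and the interaction before PH 3. Quantile normalization gave 1 for M+Fc-GLP-1 over time (0) and 10 for the interaction before PH, which median centring raised to 14. Without both doubted arrays, chosen after seeing the data, M+Fc-GLP-1 versus C+Fc-GLP-1 after PH had 4 and C over time 5.

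With each array left out in turn, counts ran from 10 to 14 for MCD versus C before PH, 1 to 2 for C+Fc-GLP-1 versus C before PH, 0 to 4 for M+Fc-GLP-1 versus MCD before PH, 2 to 4 for M+Fc-GLP-1 versus C+Fc-GLP-1 before PH, 2 to 5 for MCD versus C after PH, 0 to 0 for C+Fc-GLP-1 versus C after PH, 2 to 3 for M+Fc-GLP-1 versus MCD after PH, 2 to 7 for M+Fc-GLP-1 versus C+Fc-GLP-1 after PH, 5 to 13 for C over time, 1 to 1 for MCD over time, 0 to 1 for C+Fc-GLP-1 over time, 0 to 1 for M+Fc-GLP-1 over time, 1 to 6 for the interaction before PH (2 without C replicate 1, MCD replicate 4, C+Fc-GLP-1 replicate 2 or M+Fc-GLP-1 replicate 1, and 1 without MCD replicate 1) and 0 to 0 for the interaction of diet and time.

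Arrays of the same replicate number did not deviate together (mean r of residuals 0.0446 over 48 pairs, from -0.189 to 0.516, against -0.0143 over 144 pairs of other numbers), so the numbers were not taken as pairs. Between before and after PH of a regimen, where sample titles repeat, the mean was 0.0126 over 16 pairs (highest 0.0876). A replicate block within each regimen, chosen after seeing the data, lost 1 call over time, Ccl7 in C livers (adjusted p = 0.051). With the replicate block, C+Fc-GLP-1 over time had 1 member called, against 0 without it. Dim signal limits Ccl3, Ccl4, Ccl7, Ccl17, Xcl1 and the 6 members that no group measured on all its arrays.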
